A study of Mus musculus with 16 samples.

Results

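Enzalutamide was compared with vehicle in tumours of freely fed mice, by RNA-seq of 8 tumours out of the 16 in the series. All genes with enough counts were taken as members, which were 18946 of the 55414 gene IDs. The ENZ group was 4 tumours of mice that received 20 mg/kg of enzalutamide by gavage once a day and ate normal chow without restriction. The Vehicle group was 4 tumours of mice that received the vehicle and ate the same way. Every tumour grew from B6MyC-CaP cells, a single prostate cancer line from the Hi-MYC transgenic mouse backcrossed to C57BL/6, placed under the skin of male C57BL/6 mice aged 6 weeks. The labels do not mention castration. The other 8 tumours came from mice under alternate-day fasting (24 h without food, then 24 h with it), 4 with enzalutamide (ADF+ENZ) and 4 without (ADF), and are used here only for a comparison of the enzalutamide effect. The Hi-MYC transgene carries MYC under a prostate promoter that depends on androgen, and tumours under the skin also hold host stroma. The labels do not say whether each tumour came from its own mouse, so the p-values reflect only how these samples vary, which may in part be technical.

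Androgens are the steroid hormones on which prostate cells depend. Testosterone and its derivative dihydrotestosterone switch on genes of secretion, growth and metabolism in these cells, and enzalutamide is a drug that blocks this hormone response. Glucocorticoids act through a closely related DNA element, so some genes, Fkbp5 among them, answer to both hormones.

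Each ENZ library held 10630096 to 23558532 counts on genes, and each Vehicle library 15722655 to 18313259. The share of reads in no annotated feature was 25.9% ± 1.45 in ENZ and 25.9% ± 2.25 in Vehicle libraries (SD, n = 4 each). Of 7 such library measures, 0 passed an exact two-sided permutation test after Benjamini-Hochberg adjustment (smallest adjusted p = 0.400). The smallest unadjusted p that 70 assignments allow is 0.0286, so a measure alone could not pass after adjustment over 7, whatever its values. The smallest unadjusted p in this test, 0.0571, was for reads aligned to several places. Their share was 7.89% ± 0.07 in ENZ and 7.44% ± 0.29 in Vehicle libraries (SD, n = 4 each). In a principal component analysis of the 8 libraries the first component held 34.5% of the variance of the 1000 most variable genes, with ENZ libraries between 9.71 and 24.7 and Vehicle libraries between -19.2 and -13.5.

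The tumours carried transcripts of the labelled cell type together with mesenchymal ones. Levels are given in CPM, read counts scaled to a common library size (here by TMM). The luminal keratin gene Krt8 had 360.5, 398, 465 and 661 CPM in ENZ tumours, against 502, 649.6, 573 and 649.9 CPM in Vehicle tumours. Transcripts of Foxa1 and Hoxb13, transcription factors of the prostate lineage, were at 47.0 to 63.1 and 7.37 to 10.5 CPM over ENZ tumours and at 34.8 to 67.7 and 9.20 to 11.1 CPM over Vehicle tumours. Vim, the mesenchymal filament gene, was at 2035 to 2698 CPM in ENZ and 2363 to 3646 CPM in Vehicle tumours. The epithelial adhesion gene Cdh1 was at 1.43 to 2.64 CPM in ENZ and 1.83 to 5.26 CPM in Vehicle tumours. Epcam had 33 counts over the ENZ libraries and 30 over the Vehicle libraries. Defining products of the normal prostate were near or at 0. Pbsn, the androgen-dependent secretory gene probasin, had 0 counts in both groups, which allows up to 0.0451 CPM over the ENZ libraries and 0.0443 over the Vehicle libraries, from 3 counts per group and for counting error only. The androgen-induced protease gene Tmprss2 had 14 counts in ENZ and 21 in Vehicle. At this depth no difference in Pbsn or Tmprss2 could be detected.

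Enzalutamide tumours differed from vehicle tumours in 1028 genes, with falls more frequent than rises. At an adjusted p under 0.05 in edgeR's quasi-likelihood test, 5.43% of the 18946 genes tested passed. Of these, 686 were lower in ENZ (3.62% of genes tested) and 342 were higher (1.81%). Over 2-fold changes numbered 188 lower and 66 higher. The median log2 change was -0.61 among genes that fell and 0.57 among genes that rose, against 0.01 over all genes tested. Protein-coding genes made up 648 of the falls and 290 of the rises. In bulk tumours fewer cells of a type and less RNA per cell cannot be told apart. The number of genes past the threshold depended on single libraries. It was 634, 403 or 613 when ENZ replicate 2, 3 or 4 was left out in turn, and 461 when Vehicle replicate 3 was. All 8 fits with 1 library left out shared 335 of the 1028 calls.

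**Figure D1:**
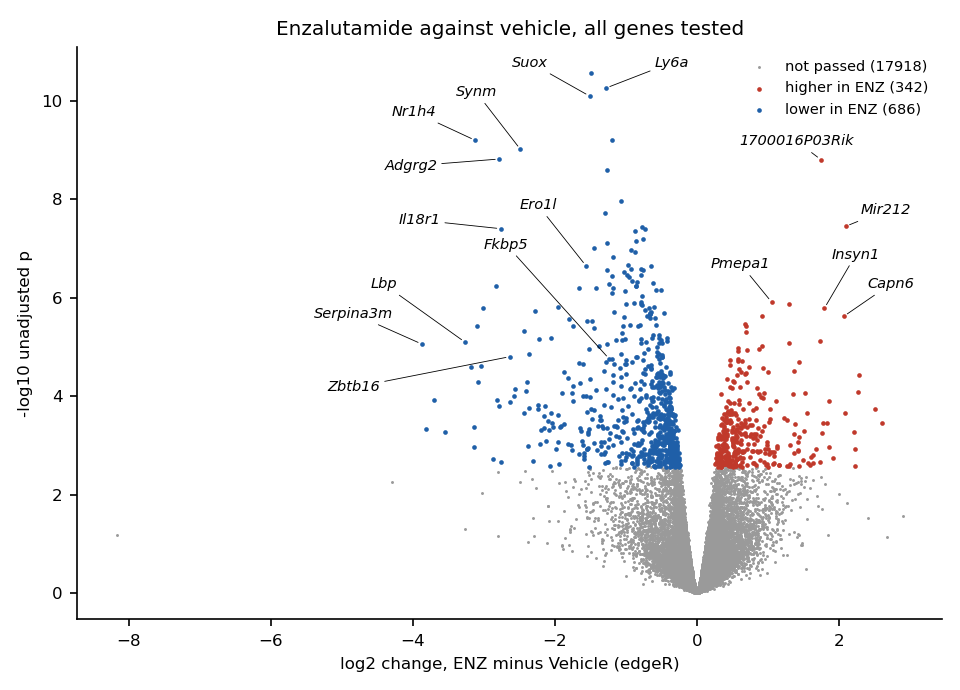
Each point is 1 of the 18946 genes tested, with the edgeR log2 change of ENZ minus Vehicle on the x axis and -log10 of the unadjusted p on the y axis. The 686 genes lower in ENZ (blue) reach further from 0 than the 342 higher (red), with Nr1h4, Adgrg2 and Lbp far to the left and Mir212, Capn6 and Insyn1 to the right.

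Serpina3m, a serine protease inhibitor gene of the antichymotrypsin family, had 8.05, 3.07, 2.34 and 0.831 CPM in ENZ tumours, against 41.4, 36.9, 76.2 and 38.1 CPM in Vehicle tumours. It was the largest of the named falls (log2 change -3.87, SE 0.55, adjusted p = 0.00144). Serpina3n, its paralog, was at 6.27 to 23.2 CPM in ENZ and 59.5 to 90.3 CPM in Vehicle tumours (log2 change -2.43, SE 0.33, adjusted p = 0.000981). The Serpina3 genes are near copies of each other, so reads could be shared between them and each value is uncertain. Nr1h4, which encodes the bile acid receptor FXR, had 3.22, 1.71, 1.26 and 1.08 CPM in ENZ tumours, against 14.98, 14.98, 15.1 and 15.3 CPM in Vehicle tumours. The 4 Vehicle values lay almost on each other and no ENZ value came near them (log2 change -3.12, SE 0.27, adjusted p = 2.37e-06). Tfcp2l1, a transcription factor gene of the grainyhead family, had 0.805, 2.93, 7.57 and 1.41 CPM in ENZ tumours, against 44.6, 22.1, 60.3 and 24.8 CPM in Vehicle tumours. The ENZ values were spread widely but all below the Vehicle ones (log2 change -3.55, SE 0.77, adjusted p = 0.0196). This call was lost without ENZ replicate 2 (adjusted p = 0.0573), ENZ replicate 4 (adjusted p = 0.0644) or Vehicle replicate 3 (0.0630).

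Several of these falls were in receptors. Adgrg2, an adhesion G-protein-coupled receptor gene known from the epididymis, had 21.6, 13.9, 14.5 and 16.7 CPM in ENZ tumours, against 79.0, 121, 107 and 149.9 CPM in Vehicle tumours. Its groups were far apart, with the lowest Vehicle tumour well above the highest ENZ tumour (log2 change -2.78, SE 0.22, adjusted p = 3.66e-06). Il18r1, which encodes the ligand-binding chain of the interleukin-18 receptor, had 10.4, 5.87, 7.39 and 5.98 CPM in ENZ tumours, against 37.1, 50.9, 55.2 and 54.7 CPM in Vehicle tumours. All Vehicle tumours were more than 3-fold above all ENZ tumours (log2 change -2.76, SE 0.27, adjusted p = 5.08e-05). Among the other large falls, the thrombospondin-domain gene Thsd7a was at 1.49 to 6.28 CPM in ENZ and 22.1 to 40.1 CPM in Vehicle tumours (log2 change -3.08, SE 0.52, adjusted p = 0.00471). The intermediate filament gene Synm was at 6.62 to 8.95 CPM in ENZ and 33.6 to 50.8 CPM in Vehicle tumours (log2 change -2.49, SE 0.21, adjusted p = 3.03e-06). Megf10, an engulfment receptor gene, was at 0.601 to 1.501 CPM in ENZ and 3.39 to 11.9 CPM in Vehicle tumours (log2 change -2.76, SE 0.73, adjusted p = 0.0444). It passed in only 1 of the 8 fits with 1 library left out, the fit without Vehicle replicate 1, and in the others its adjusted p was up to 0.136. It did not pass in limma-voom or with no filter.

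**Figure D2:**
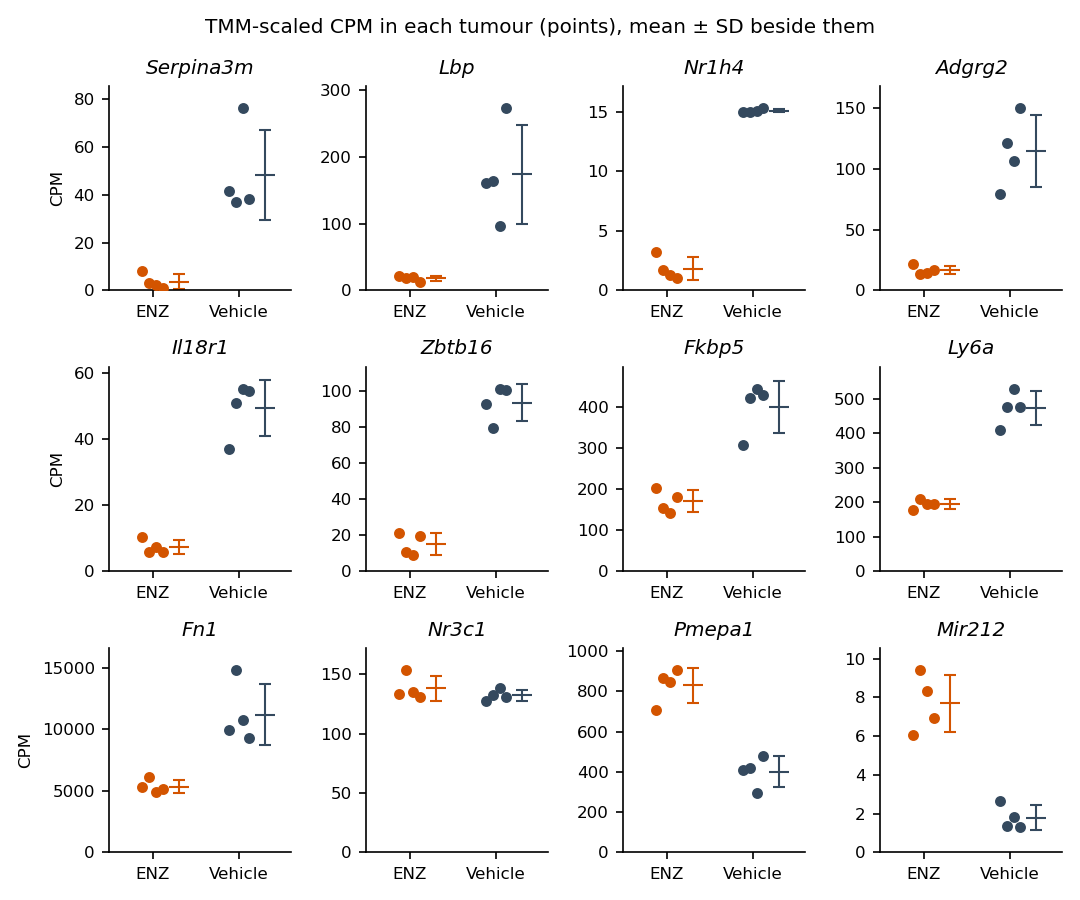
CPM of 12 genes in each tumour, with ENZ on the left and Vehicle on the right of each panel, points for tumours and the mean ± SD beside them. In the panels of Serpina3m, Lbp, Nr1h4, Adgrg2, Il18r1, Zbtb16, Fkbp5, Ly6a and Fn1 every ENZ point is below every Vehicle point, in that of Nr3c1 the groups overlap, and in those of Pmepa1 and Mir212 every ENZ point is above.

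A minority of the androgen response genes passed. Of 82 tested members of an androgen response list 8 fell (9.76%, against 3.62% of all genes tested) and 2 rose (2.44%, against 1.81%). The median log2 change was -0.09. The 8 became 13 in DESeq2, 4 without ENZ replicate 3 and 5 without Vehicle replicate 3, and the 2 became 1 without ENZ replicates 2, 3 or 4 or Vehicle replicates 2, 3 or 4. Nr3c1, the glucocorticoid receptor gene, had 133, 154, 135 and 131 CPM in ENZ tumours, against 127, 132, 139 and 130.4 CPM in Vehicle tumours, with overlapping groups (log2 change 0.06, SE 0.10, adjusted p = 0.762). Among 19 tested genes of steroid receptors and their cofactors, 0 passed in edgeR with all libraries and 4 had an unadjusted p under 0.05 (2 lower and 2 higher). In edgeR 1 was lower with DESeq2 size factors, without ENZ replicate 1 or without Vehicle replicate 1. DESeq2 called 1 lower and limma-voom called 2 lower and 1 higher.

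Fkbp5, a cochaperone gene of steroid receptors, had 203, 155, 143 and 180.4 CPM in ENZ tumours, against 306, 422, 443 and 429 CPM in Vehicle tumours. All ENZ values were below all Vehicle values (log2 change -1.23, SE 0.20, adjusted p = 0.00240). Zbtb16, a zinc finger repressor gene known to be induced by glucocorticoid, had 21.2, 10.9, 9.07 and 19.4 CPM in ENZ tumours, against 93.1, 79.8, 101 and 101 CPM in Vehicle tumours, again without overlap (log2 change -2.63, SE 0.39, adjusted p = 0.00223). Ndrg1, a gene induced by androgen and by low oxygen, had 88.8, 121, 85.7 and 103 CPM in ENZ tumours, against 197, 189, 274 and 152 CPM in Vehicle tumours (log2 change -1.03, SE 0.15, adjusted p = 0.000613). Hsd17b11, which encodes a steroid dehydrogenase of lipid droplets, had 60.7, 53.6, 53.9 and 49.7 CPM in ENZ tumours, against 83.4, 92.1, 92.0 and 93.4 CPM in Vehicle tumours (log2 change -0.73, SE 0.08, adjusted p = 5.08e-05). Krt19, a keratin gene of simple epithelia, was low in both groups, at 0.0682 to 0.361 CPM in ENZ and 0.916 to 6.18 CPM in Vehicle tumours (log2 change -3.70, SE 0.74, adjusted p = 0.00799). It had 12 counts over the ENZ and 169 over the Vehicle libraries, and it passed the filter on low counts only through the Vehicle libraries. With at least 1 CPM in 4 libraries it was not tested, and DESeq2 gave it no adjusted p. Its fall is therefore uncertain. Pmepa1, an androgen-induced gene in human prostate cells that is also induced by TGF-beta, went against the direction of these falls. It had 706, 864, 844 and 906 CPM in ENZ tumours, against 409.9, 421, 294 and 476 CPM in Vehicle tumours. Every ENZ tumour was above every Vehicle tumour (log2 change 1.05, SE 0.15, adjusted p = 0.000441). Pmepa1os, annotated as its antisense gene, also rose, at 1.30 to 3.16 CPM in ENZ and 0.196 to 0.773 CPM in Vehicle tumours (log2 change 2.28, SE 0.45, adjusted p = 0.00621). The strand setting is not known, so reads of this pair cannot be told apart.

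Of 22 tested glucocorticoid-induced genes 6 fell (27.3%, against 3.62% of all genes tested) and 0 rose, with a median log2 change of -0.38. Beside Fkbp5 and Zbtb16 they were Mt1, a metallothionein gene, Lcn2, Cebpd and Pik3r1. Mt1 had 90.6, 91.0, 83.5 and 96.1 CPM in ENZ tumours, against 126, 171, 178 and 142 CPM in Vehicle tumours (log2 change -0.77, SE 0.11, adjusted p = 0.000465). Cebpd, a C/EBP transcription factor gene, had 34.8, 17.8, 13.9 and 12.1 CPM in ENZ tumours, against 36.0, 39.2, 45.8 and 34.3 CPM in Vehicle tumours, with ENZ replicate 1 among the Vehicle values (log2 change -1.003, SE 0.26, adjusted p = 0.0386). With 1 library left out it passed only without ENZ replicate 1, and its adjusted p was up to 0.125. It did not pass with no filter or in the fit of ENZ and Vehicle alone. Pik3r1 passed with all libraries (log2 change -0.48, SE 0.13, adjusted p = 0.0363) and not without ENZ replicates 2 (adjusted p = 0.106) or 3 (0.132) or Vehicle replicates 2 (0.0861) or 4 (0.0999), or in the fit of ENZ and Vehicle alone. Other classical members did not pass, among them Tsc22d3, the gene of the glucocorticoid-induced leucine zipper (log2 change -0.48, SE 0.31, adjusted p = 0.423), and the clock gene Per1 (log2 change -0.05, SE 0.33, adjusted p = 0.950). In both, ENZ replicate 1 was the highest of the 8 tumours. Sgk1, a kinase gene induced by glucocorticoid, had 138, 141, 121 and 107 CPM in ENZ tumours, against 245, 213, 236 and 193 CPM in Vehicle tumours. Its groups were apart and its adjusted p of 0.0588 missed the threshold, while it passed in DESeq2, in limma-voom and in the fit of ENZ and Vehicle alone.

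Many genes of the response to low oxygen and of glycolysis fell. Hypoxia-inducible factor (HIF) is degraded when oxygen is plentiful, because prolyl hydroxylases mark its alpha subunits, and when it is stable it switches on genes of glucose uptake, glycolysis, pH control and vessel growth. Of 36 tested HIF-related genes outside glycolysis 13 fell (36.1%) and 0 rose, with a median log2 change of -0.46 and 32 of 36 below 0. Of 30 tested glycolysis genes 12 fell (40%) and 0 rose, with a median of -0.40 and 28 of 30 below 0. An unadjusted p under 0.05 in the higher direction was found for 0 of the 36 and 1 of the 30, and DESeq2 and limma-voom called 0 higher. Over all genes tested 3.62% fell and the median was 0.01. Leaving out 1 library changed these counts, to 7 of the 36 without ENZ replicate 3 or Vehicle replicate 3 and to 4 of the 30 without either of them. For the glycolysis list the count was also 7 without ENZ replicate 1, 5 without ENZ replicate 4, 7 without Vehicle replicate 2 and 5 in a fit of the ENZ and Vehicle libraries alone.

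The promoters of 4 genes that fell are shown because they hold ACGTG, the core letters that HIF reads, which are printed in capitals on either strand (as ACGTG or CACGT). Where these overlap in CACGTG, as in Bnip3, only CACGT is in capitals and the stretch counts as 1 match. The sequences are the 250 bases before the gene's start, 5′ to 3′ along the gene, from RefSeq on GRCm38.p6: Bnip3 (chr7:138909507-138909756, minus strand), Egln3 (chr12:54203875-54204124, minus strand), P4ha2 (chr11:54100674-54100923, plus strand) and Pgk1 (chrX:106186850-106187099, plus strand).
Bnip3: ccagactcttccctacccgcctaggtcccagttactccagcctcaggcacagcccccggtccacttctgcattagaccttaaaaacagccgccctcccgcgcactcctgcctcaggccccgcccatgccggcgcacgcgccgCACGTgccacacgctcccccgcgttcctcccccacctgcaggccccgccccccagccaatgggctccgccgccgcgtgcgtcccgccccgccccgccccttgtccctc
Egln3: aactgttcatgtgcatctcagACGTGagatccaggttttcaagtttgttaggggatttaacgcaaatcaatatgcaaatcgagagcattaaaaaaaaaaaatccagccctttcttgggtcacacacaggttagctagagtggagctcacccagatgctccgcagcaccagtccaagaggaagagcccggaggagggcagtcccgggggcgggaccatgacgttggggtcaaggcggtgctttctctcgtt
P4ha2: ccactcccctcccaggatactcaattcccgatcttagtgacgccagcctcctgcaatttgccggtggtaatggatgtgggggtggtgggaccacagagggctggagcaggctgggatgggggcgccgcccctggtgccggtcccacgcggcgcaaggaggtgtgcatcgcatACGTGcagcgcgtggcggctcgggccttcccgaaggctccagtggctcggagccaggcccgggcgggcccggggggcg
Pgk1: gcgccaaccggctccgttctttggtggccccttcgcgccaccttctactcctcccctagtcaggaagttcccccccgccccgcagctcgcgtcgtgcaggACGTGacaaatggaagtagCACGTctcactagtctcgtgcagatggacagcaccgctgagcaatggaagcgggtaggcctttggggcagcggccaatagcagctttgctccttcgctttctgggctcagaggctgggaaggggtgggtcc
The match in Bnip3 began 108 bases before the start, that in Egln3 229 bases, that in P4ha2 78 bases and those in Pgk1 150 and 131 bases. Such a match was in 10 of the 21 promoters found for list members that fell (47.6%), in 19 of the 34 found for members that did not pass (55.9%) and in 2806 of the 11628 found for all genes tested (24.1%). The share of promoters with a match was not tested, and a match is no more than these letters in this window.

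Among the HIF-related genes the falls covered several roles. Ero1l, an oxidase gene of protein folding in the endoplasmic reticulum, had 45.7, 48.5, 37.4 and 29.2 CPM in ENZ tumours, against 117, 108, 159.5 and 88.9 CPM in Vehicle tumours (log2 change -1.56, SE 0.18, adjusted p = 0.000163). Egln3, the oxygen-sensing prolyl hydroxylase gene that HIF itself induces, had 127, 129, 117 and 123 CPM in ENZ tumours, against 261, 225, 311 and 200.3 CPM in Vehicle tumours (log2 change -1.01, SE 0.16, adjusted p = 0.00129). P4ha2, a collagen prolyl hydroxylase subunit gene, had 55.7, 57.8, 61.6 and 53.1 CPM in ENZ tumours, against 102, 112, 131 and 89.1 CPM in Vehicle tumours (log2 change -0.93, SE 0.12, adjusted p = 0.000173). In these genes every ENZ tumour lay below every Vehicle tumour. Pgf, which encodes placental growth factor, a ligand of VEGF receptor 1, was at 17.2 to 28.8 CPM in ENZ and 64.5 to 83.1 CPM in Vehicle tumours (log2 change -1.66, SE 0.27, adjusted p = 0.00272). Bnip3, a gene of mitochondrial removal, had 29.7, 28.0, 19.8 and 14.9 CPM in ENZ tumours, against 52.6, 46.2, 81.0 and 34.1 CPM in Vehicle tumours, with Vehicle replicate 3 the highest of the 8 (log2 change -1.22, SE 0.28, adjusted p = 0.0201). The Bnip3 call was lost without ENZ replicate 3 (adjusted p = 0.0739), ENZ replicate 4 (adjusted p = 0.0570) or Vehicle replicate 3 (0.0588), and in the fit of ENZ and Vehicle alone. The other members that fell were Ndrg1, given above, and Bnip3l, P4ha1, Lox, Kdm3a, Kdm4b, Higd1a and Anxa2, with log2 changes from -0.88 to -0.41 and adjusted p from 0.00853 to 0.0488. Of these Anxa2, an annexin gene (log2 change -0.44, SE 0.09, adjusted p = 0.00853), passed in all 8 fits with 1 library left out. Vegfa, the best known angiogenic HIF target, had 267, 297, 267 and 252 CPM in ENZ tumours, against 303, 319, 372 and 238 CPM in Vehicle tumours. Its groups overlapped and it did not pass (log2 change -0.18, SE 0.11, adjusted p = 0.386). Neither did the carbonic anhydrase gene Car9 (log2 change -0.79, SE 0.39, adjusted p = 0.275) or the HIF subunit gene Hif1a (log2 change -0.09, SE 0.08, adjusted p = 0.613).

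The members of the glycolysis list that fell included genes of glucose uptake, of several steps of the pathway and of pyruvate dehydrogenase. Pgam1, Eno1, Eno2, Pkm and Ldhb did not pass, nor did Mpc1 and Mpc2, the genes of the mitochondrial pyruvate carrier. Hk1 and Hk2 encode hexokinases. Hk2 had 82.4, 71.3, 60.3 and 78.0 CPM in ENZ tumours, against 95.6, 120.5, 124 and 102 CPM in Vehicle tumours (log2 change -0.60, SE 0.12, adjusted p = 0.00545), and Hk1 was at 104 to 129 CPM in ENZ and 137 to 196 CPM in Vehicle tumours (log2 change -0.50, SE 0.10, adjusted p = 0.00513). Aldoc, an aldolase gene, had 1.16, 1.64, 1.68 and 0.914 CPM in ENZ tumours, against 2.73, 5.26, 4.71 and 3.70 CPM in Vehicle tumours and the largest change of the list (log2 change -1.61, SE 0.29, adjusted p = 0.00272). Tpi1, which encodes triose phosphate isomerase, had 309, 346, 339.6 and 321 CPM in ENZ tumours, against 459, 538, 671 and 395 CPM in Vehicle tumours (log2 change -0.65, SE 0.13, adjusted p = 0.00765). Vehicle replicate 3 had the highest level of 8 tumours in Tpi1, Pgk1, Hk2 and Ldha, and Vehicle replicate 4 the lowest Vehicle level in Tpi1, Pgk1 and Ldha. Pgk1, the phosphoglycerate kinase gene, had 378, 377, 313 and 315 CPM in ENZ tumours, against 505, 561, 644 and 364 CPM in Vehicle tumours, with overlapping groups (log2 change -0.58, SE 0.13, adjusted p = 0.0149). Its call was lost without ENZ replicate 3 (adjusted p = 0.0625), ENZ replicate 4 (adjusted p = 0.0515) or Vehicle replicate 3 (0.0680), and in the fit of ENZ and Vehicle alone, as was that of Pdk1. Ldha, the lactate dehydrogenase gene at the end of the pathway, had 528, 546, 552 and 478 CPM in ENZ tumours, against 682, 668, 791 and 513 CPM in Vehicle tumours and did not pass with all libraries (log2 change -0.34, SE 0.12, adjusted p = 0.115), but did without Vehicle replicate 4 (adjusted p = 0.0349). The other members that fell were Slc2a1, Gpi1, Pfkp, Aldoa, Gapdh, Pdk1 and Pdha1, with log2 changes from -0.92 to -0.31 and adjusted p from 0.0165 to 0.0461.

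**Figure D3:**
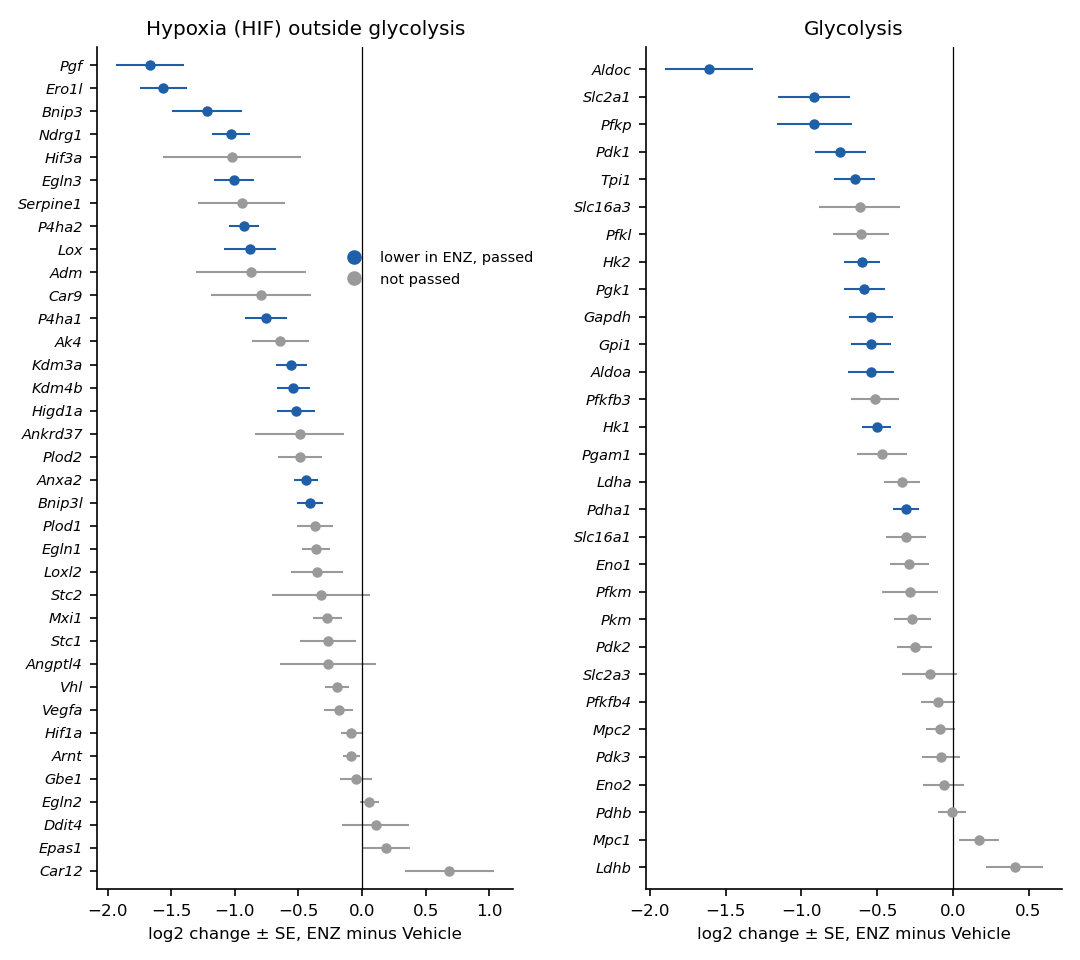
The log2 change of ENZ minus Vehicle (x axis, ± SE from edgeR) of every tested member of the HIF-related list (left, 36 genes) and the glycolysis list (right, 30 genes), with genes ordered by size. Members that passed are blue, 13 on the left and 12 on the right, all below 0, and members that did not pass are grey.

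Secreted acute phase genes, a liver-type programme that cytokines and glucocorticoid raise together, fell in part. Of 28 listed genes 14 had enough counts to be tested, and of these 8 fell (57.1%, against 3.62% of all genes tested) and 0 rose. The median log2 change was -1.56 and all 14 were below 0. Lbp, which encodes the protein that hands lipopolysaccharide to CD14, had 22.01, 18.2, 19.8 and 12.7 CPM in ENZ tumours, against 161, 163, 96.2 and 273 CPM in Vehicle tumours. The groups were far apart although the Vehicle tumours spread widely (log2 change -3.27, SE 0.45, adjusted p = 0.00139). Lcn2, the siderophore-binding lipocalin gene, had 5.73, 6.89, 1.86 and 3.07 CPM in ENZ tumours, against 23.4, 23.04, 31.7 and 11.99 CPM in Vehicle tumours (log2 change -2.39, SE 0.42, adjusted p = 0.00476). C3, the central complement gene, had 48.2, 140.5, 143 and 103 CPM in ENZ tumours, against 214, 423, 369 and 317 CPM in Vehicle tumours, with ENZ replicate 1 the lowest of the 8 (log2 change -1.605, SE 0.38, adjusted p = 0.0283). It did not pass without ENZ replicate 3 (adjusted p = 0.0550), ENZ replicate 4 (adjusted p = 0.0766) or Vehicle replicates 2 (0.0625), 3 (0.0814) or 4 (0.0533), with no filter, or in the fit of ENZ and Vehicle alone. The serum amyloid gene Saa3 did not pass (log2 change -1.09, SE 0.58, adjusted p = 0.327). The number of members that fell was 5 without ENZ replicate 3, ENZ replicate 4 or Vehicle replicate 3, and also 5 in the fit with no filter on low counts.

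The interleukin, interferon and antigen presentation lists each held few calls but a larger share of falls than all genes tested. Over all genes tested 3.62% fell and 1.81% rose. In the interleukin-1 and interleukin-18 list 3 of 19 tested genes fell (15.8%) and 0 rose, with a median of -0.04, Il18r1 being the largest. The number was 1 without ENZ replicates 1, 2 or 3 or Vehicle replicates 2, 3 or 4, and 1 in a fit of the ENZ and Vehicle libraries alone. Of 48 tested interferon response genes 4 fell (8.33%) and 0 rose, with 43 of 48 below 0 and a median of -0.25. It was 2 without ENZ replicate 3, ENZ replicate 4 or Vehicle replicate 3, and DESeq2 called 10. Stat2, a subunit gene of the interferon-activated transcription complex, had 45.1, 34.1, 34.9 and 39.7 CPM in ENZ tumours, against 59.1, 52.7, 62.2 and 64.5 CPM in Vehicle tumours (log2 change -0.63, SE 0.12, adjusted p = 0.00545). Isg20, an exonuclease gene induced by interferon, had 7.78, 5.66, 4.69 and 5.44 CPM in ENZ tumours, against 9.45, 13.3, 12.2 and 11.8 CPM in Vehicle tumours (log2 change -0.996, SE 0.18, adjusted p = 0.00247). In the antigen presentation list 2 of 26 fell (7.69%), with 24 of 26 below 0 and a median of -0.66, while DESeq2 called 5 and the fit of ENZ and Vehicle alone 4. The summed level of the list was 3563 to 4874 CPM in ENZ tumours, against 4393, 7407, 4322 and 6572 CPM in Vehicle tumours. Vehicle replicates 2 and 4, which were above the others, also had the highest summed levels of the T and NK cell list, at 25.2 and 19.6 CPM, and the part of these cells in the change was not tested. Tapbp, which encodes tapasin, the chaperone that loads peptide onto MHC class I, had 195, 196, 222 and 245 CPM in ENZ tumours, against 293, 493, 324 and 374 CPM in Vehicle tumours (log2 change -0.79, SE 0.15, adjusted p = 0.00466). H2-T23, a non-classical MHC class I gene, had 30.4, 32.3, 26.7 and 31.6 CPM in ENZ tumours, against 59.4, 68.8, 72.5 and 75.4 CPM in Vehicle tumours (log2 change -1.19, SE 0.20, adjusted p = 0.00239). Class I genes are near copies of each other, so reads could be split between them. The classical genes H2-K1 (log2 change -0.73, SE 0.31, adjusted p = 0.208) and H2-D1 (log2 change -0.72, SE 0.20, adjusted p = 0.0508) had ranges apart and did not pass, except H2-D1 without Vehicle replicate 1 (adjusted p = 0.0305), in DESeq2, with DESeq2 size factors, with at least 1 CPM in 4 libraries and in the fit of ENZ and Vehicle alone, and the light chain gene B2m had overlapping groups (log2 change -0.24, SE 0.15, adjusted p = 0.380). Of 28 tested chemokine ligand genes 1 rose and 1 fell (3.57% each), with a median of -0.36, against 1.81% and 3.62% of all genes tested, and an unadjusted p under 0.05 was found for 2 in the higher and 8 in the lower direction. The 1 that fell became 0 without ENZ replicate 3, 2 without Vehicle replicates 2, 3 or 4 or in the fit of ENZ and Vehicle alone, and 3 in DESeq2, and the 1 that rose became 2 without ENZ replicate 4 or in DESeq2. The one that rose was Cx3cl1, which encodes fractalkine, with 66.5, 61.8, 61.7 and 66.2 CPM in ENZ tumours, against 40.1, 36.4, 51.0 and 39.9 CPM in Vehicle tumours (log2 change 0.61, SE 0.11, adjusted p = 0.00352).

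Matrix and junction genes fell in part. Over all genes tested 3.62% fell and 1.81% rose. Of 38 tested matrix glycoprotein and proteoglycan genes 6 fell (15.8%) and 2 rose, with a median of -0.11. Fn1, the fibronectin gene, had 5304, 6124, 4880.2 and 5120.4 CPM in ENZ tumours, against 9912, 14837, 10797 and 9283 CPM in Vehicle tumours (log2 change -1.06, SE 0.18, adjusted p = 0.00207). Tnxb, which encodes tenascin-X, was at 54.3 to 58.8 CPM in ENZ, where the 4 tumours were nearly equal, and at 99.9 to 237 CPM in Vehicle tumours (log2 change -1.48, SE 0.20, adjusted p = 0.000717). Fbln2, the fibulin-2 gene, was at 57.3 to 110.0 CPM in ENZ and 213 to 339.9 CPM in Vehicle tumours (log2 change -1.65, SE 0.28, adjusted p = 0.00481). Of 29 tested integrin and laminin genes 4 fell (13.8%) and 0 rose, and 2 fell without ENZ replicate 3 or Vehicle replicate 3. Lamb2, a laminin beta chain gene of basement membranes, had 106, 111, 91.6 and 93.5 CPM in ENZ tumours, against 177, 164, 188 and 205 CPM in Vehicle tumours (log2 change -0.87, SE 0.10, adjusted p = 5.08e-05), and Lamc3, a laminin gamma chain gene, had 6.71, 4.03, 4.99 and 4.90 CPM in ENZ tumours, against 26.9, 17.4, 23.9 and 27.8 CPM in Vehicle tumours (log2 change -2.23, SE 0.33, adjusted p = 0.00129). In both the groups were apart. Of 24 tested collagen genes 1 rose, Col27a1 (log2 change 1.37, SE 0.31, adjusted p = 0.0206), and 0 fell in edgeR (4 lower at an unadjusted p under 0.05). DESeq2 called 2 lower, limma-voom 1 and the edgeR fit of ENZ and Vehicle alone 1. Col27a1 did not pass without ENZ replicates 3 (adjusted p = 0.0702) or 4 (0.0509) or Vehicle replicates 2 (0.0529) or 3 (0.0743).

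Of 30 tested claudin and junction genes 3 fell (10%, against 3.62% of all genes tested) and 1 rose (3.33%, against 1.81%), with a median of -0.08. The 1 that rose became 0 without ENZ replicates 2, 3 or 4 or Vehicle replicate 3 and in the fit of ENZ and Vehicle alone, and 2 without ENZ replicate 1 or Vehicle replicate 4, with no filter, in DESeq2 and in limma-voom. Cldn1, a tight junction gene, had 12.9, 9.08, 10.8 and 7.68 CPM in ENZ tumours, against 38.6, 20.2, 29.5 and 29.2 CPM in Vehicle tumours (log2 change -1.55, SE 0.22, adjusted p = 0.000717). Cldn10, a paralog that forms ion pores, had 1.61, 2.32, 1.14 and 0.914 CPM in ENZ tumours, against 5.65, 5.54, 5.69 and 13.1 CPM in Vehicle tumours, with Vehicle replicate 4 the highest (log2 change -2.36, SE 0.39, adjusted p = 0.00207). Cdh13, which encodes the membrane-anchored T-cadherin, had 179.8, 190.3, 145 and 134 CPM in ENZ tumours, against 294, 266, 361 and 272 CPM in Vehicle tumours (log2 change -0.88, SE 0.13, adjusted p = 0.000457). In the list of TGF-beta and BMP genes 3 of 42 fell (7.14%, against 3.62%) and 2 rose (4.76%, against 1.81%), with a median of -0.06. The 2 became 1 without ENZ replicates 2, 3 or 4 or Vehicle replicates 1 or 3 or with no filter, and 4 in the fit of ENZ and Vehicle alone. Bmp6, a ligand gene, was at 1.20 to 2.53 CPM in ENZ and 3.15 to 9.27 CPM in Vehicle tumours (log2 change -1.61, SE 0.33, adjusted p = 0.00732). Id2, a target gene of BMP signals, had 25.4, 32.2, 26.1 and 32.9 CPM in ENZ tumours, against 59.5, 53.3, 53.1 and 45.4 CPM in Vehicle tumours (log2 change -0.85, SE 0.15, adjusted p = 0.00223).

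Ly6a, which encodes Sca-1, a surface protein used to mark stem and progenitor cells in the mouse, was among the genes with the smallest p. It had 177, 211, 194 and 196 CPM in ENZ tumours, against 409, 476, 529 and 477 CPM in Vehicle tumours. The tumours of each group lay close together and the groups were far apart (log2 change -1.28, SE 0.10, adjusted p = 4.99e-07). It belongs to a list of 14 tested lineage plasticity genes of which 4 fell (28.6%, against 3.62% of all genes tested) and 0 rose, with a median of -0.22. Without ENZ replicate 3 or Vehicle replicate 3 the number was 1, and without ENZ replicates 2 or 4 or Vehicle replicates 1, 2 or 4, or with no filter, it was 2. Vdr, the vitamin D receptor gene, fell beside Nr1h4 and Nr5a2 in a list of nuclear receptors (3 of 19 tested, 15.8%), of which 1 fell without ENZ replicate 3. It had 5.90, 5.596, 4.57 and 7.35 CPM in ENZ tumours, against 9.57, 18.01, 15.2 and 15.8 CPM in Vehicle tumours (log2 change -1.32, SE 0.30, adjusted p = 0.0176), and lost its call without ENZ replicates 2 (adjusted p = 0.0510) or 3 (0.0704) or Vehicle replicate 3 (0.0535) or with no filter, and Nr5a2 lost its call in the fit of ENZ and Vehicle alone. In 29 tested AP-1 and immediate early genes 4 fell (13.8%, against 3.62% of all genes tested). The number was 0 without ENZ replicates 3 or 4, 1 without Vehicle replicates 1, 2 or 3 and 2 without ENZ replicate 2 or with no filter. Fosb, an AP-1 subunit gene, had 12.4, 8.26, 6.61 and 6.06 CPM in ENZ tumours, against 17.3, 16.9, 13.5 and 18.01 CPM in Vehicle tumours (log2 change -0.9996, SE 0.23, adjusted p = 0.0147), and lost its call without ENZ replicates 3 (adjusted p = 0.0630) or 4 (0.0532).

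In other lists single members stood out. Nfkbiz, which encodes an atypical regulator of NF-kB that cytokines induce, had 107, 63.5, 61.5 and 64.9 CPM in ENZ tumours, against 123, 133, 138 and 136 CPM in Vehicle tumours (log2 change -0.84, SE 0.14, adjusted p = 0.00223). Slco2a1, the prostaglandin transporter gene, was at 34.7 to 58.9 CPM in ENZ and 67.1 to 99.3 CPM in Vehicle tumours (log2 change -0.94, SE 0.18, adjusted p = 0.00566). Gclc, the catalytic subunit gene of glutathione synthesis, had 45.4, 50.4, 34.3 and 41.4 CPM in ENZ tumours, against 66.3, 71.3, 88.9 and 62.6 CPM in Vehicle tumours (log2 change -0.75, SE 0.13, adjusted p = 0.00248). Insig2, which encodes a sterol-sensing regulator of cholesterol synthesis, had 40.3, 39.2, 40.6 and 44.1 CPM in ENZ tumours, against 68.1, 57.9, 71.9 and 56.1 CPM in Vehicle tumours (log2 change -0.63, SE 0.10, adjusted p = 0.00127). The groups were apart in these genes. Lpin1, the gene of a phosphatidate phosphatase of lipid synthesis, fell (log2 change -0.75, SE 0.14, adjusted p = 0.00356), as did the Wnt co-receptor gene Lrp5 (log2 change -0.56, SE 0.11, adjusted p = 0.00405), the stress gene Nupr1 (log2 change -0.74, SE 0.14, adjusted p = 0.00489) and the elongation factor 2 kinase gene Eef2k (log2 change -0.64, SE 0.12, adjusted p = 0.00310). The sheddase gene Adam10 (log2 change -0.39, SE 0.08, adjusted p = 0.00868) and the cholesterol exporter gene Npc1 of the lysosome (log2 change -0.44, SE 0.09, adjusted p = 0.0107) fell by less. Among matrix genes that rose, Dmp1, a matrix gene of bone and dentine, had 2.95, 3.14, 2.76 and 1.16 CPM in ENZ tumours, against 0.416, 0.743, 0.196 and 0.608 CPM in Vehicle tumours (log2 change 2.29, SE 0.43, adjusted p = 0.00380), and Ptn, which encodes pleiotrophin, had 1.97, 2.32, 4.69 and 4.48 CPM in ENZ tumours, against 0.951, 0.857, 0.720 and 0.663 CPM in Vehicle tumours (log2 change 2.09, SE 0.45, adjusted p = 0.0121).

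**Figure D4:**
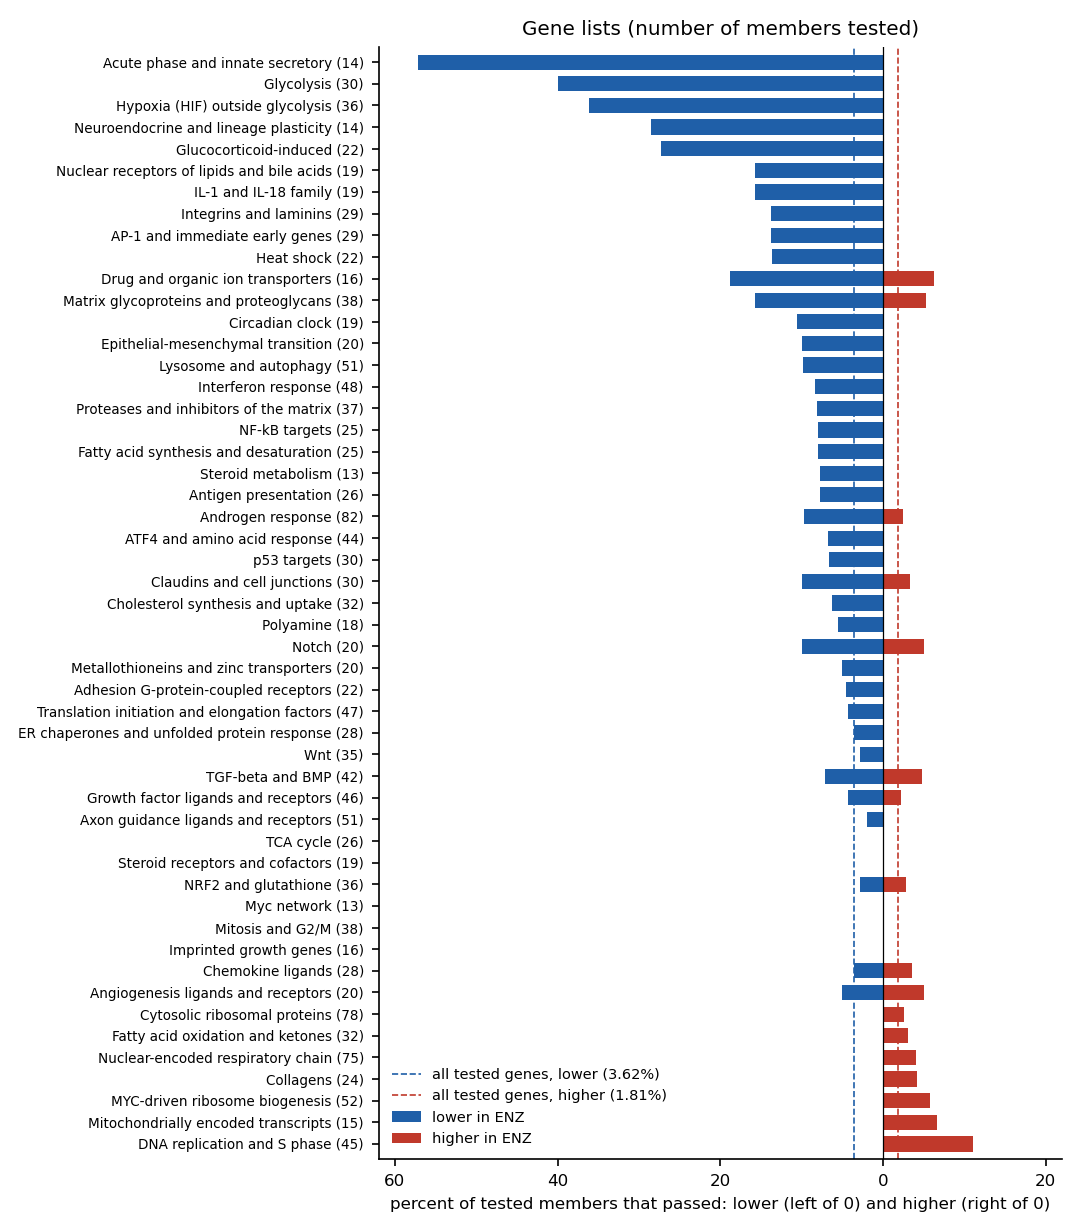
For each pathway list with at least 10 tested members (number in brackets), the percent of members lower in ENZ (blue, left of 0) and higher in ENZ (red, right of 0) at an adjusted p under 0.05, with dashed lines at the 3.62% and 1.81% of all genes tested. The acute phase, glycolysis and HIF-related lists reach furthest to the left, at 57.1%, 40% and 36.1%, and the DNA replication list furthest to the right, at 11.1%.

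Among the rises with the smallest p were a pair of overlapping genes. Mir212, a microRNA gene, had 6.08, 9.42, 8.35 and 6.93 CPM in ENZ tumours, against 2.67, 1.37, 1.83 and 1.33 CPM in Vehicle tumours. Every ENZ tumour was above every Vehicle tumour (log2 change 2.10, SE 0.24, adjusted p = 5.08e-05). 1700016P03Rik, the noncoding gene in which the annotation places Mir212 and its neighbour Mir132 on the same strand, had 21.5, 26.3, 23.1 and 21.6 CPM in ENZ tumours, against 9.45, 5.49, 5.43 and 7.13 CPM in Vehicle tumours, also without overlap (log2 change 1.75, SE 0.16, adjusted p = 3.66e-06). Mir132 had 1.07, 1.36, 1.02 and 0.789 CPM in ENZ tumours, against 0.594, 0.400, 0.393 and 0 CPM in Vehicle tumours and did not pass (log2 change 1.59, SE 0.53, adjusted p = 0.0855). The library held total RNA, and these counts cannot tell host, precursor and mature forms apart. They are therefore no measure of mature microRNA, and reads in the shared stretch could fall to either gene. The mature 3′ arms from RefSeq (GRCm38.p6, chr11:75173443-75173464 and chr11:75173723-75173744, plus strand) are shown because they share the seed, bases 2 to 8, in capitals.
miR-212-3p: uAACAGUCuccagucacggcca
miR-132-3p: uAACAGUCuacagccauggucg

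Among protein-coding genes, Capn6, a calpain gene whose product lacks protease activity, had 12.9, 30.2, 30.0 and 21.8 CPM in ENZ tumours, against 7.49, 5.83, 4.39 and 4.92 CPM in Vehicle tumours (log2 change 2.07, SE 0.29, adjusted p = 0.000613). Insyn1, known from inhibitory synapses, had 15.2, 34.3, 30.0 and 29.6 CPM in ENZ tumours, against 11.8, 7.37, 5.56 and 6.74 CPM in Vehicle tumours (log2 change 1.80, SE 0.24, adjusted p = 0.000498). Ccn4, a matricellular gene known as a Wnt target, had 63.2, 104, 102 and 141 CPM in ENZ tumours, against 34.8, 46.2, 28.1 and 42.6 CPM in Vehicle tumours (log2 change 1.44, SE 0.23, adjusted p = 0.00258). In these genes the lowest ENZ tumour was above the highest Vehicle tumour. Atp2b3, a plasma membrane calcium pump gene, was at 4.12 to 8.47 CPM in ENZ and 1.37 to 2.38 CPM in Vehicle tumours (log2 change 1.73, SE 0.28, adjusted p = 0.00136). The kinase gene Nek10 (log2 change 1.53, SE 0.30, adjusted p = 0.00646) and the forkhead transcription factor gene Foxl1 (log2 change 1.29, SE 0.21, adjusted p = 0.00141) also rose. The sulfotransferase gene Chst13 was at 8.93 to 19.8 CPM in ENZ and 3.14 to 6.89 CPM in Vehicle tumours (log2 change 1.42, SE 0.34, adjusted p = 0.0260), and Grrp1 at 4.29 to 7.27 CPM in ENZ and 1.898 to 4.14 CPM in Vehicle tumours (log2 change 1.13, SE 0.29, adjusted p = 0.0288). Chst13 lost its call without ENZ replicates 1 (adjusted p = 0.0521) or 2 (0.0717) or Vehicle replicates 2 (0.0629) or 4 (0.0717), with no filter, or in the fit of ENZ and Vehicle alone, and Grrp1 without ENZ replicates 2 (adjusted p = 0.0668), 3 (0.0960) or 4 (0.0689) or Vehicle replicates 1 (0.0647), 2 (0.0661) or 3 (0.100). Dll1, a Notch ligand gene, had 5.37, 5.05, 3.43 and 4.28 CPM in ENZ tumours, against 1.78, 1.43, 2.09 and 1.66 CPM in Vehicle tumours (log2 change 1.37, SE 0.25, adjusted p = 0.00351), while the receptor gene Notch4 had 59.7, 75.1, 53.2 and 49.1 CPM in ENZ tumours, against 104, 124, 106 and 77.3 CPM in Vehicle tumours (log2 change -0.80, SE 0.15, adjusted p = 0.00566). Inhba, the activin A subunit gene, had 143, 206, 217 and 182 CPM in ENZ tumours, against 90.9, 130.3, 80.0 and 127 CPM in Vehicle tumours (log2 change 0.80, SE 0.20, adjusted p = 0.0273), and did not pass without ENZ replicates 2 (adjusted p = 0.0701), 3 (0.0934) or 4 (0.0602) or Vehicle replicates 1 (0.0692) or 3 (0.0877) or with no filter.

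Growth-related lists were slightly above 0. Of 45 tested DNA replication genes 5 rose (11.1%, against 1.81% of all genes tested) and 0 fell, with 4 of 45 below 0 and a median of 0.25. Rfc3, a clamp loader subunit gene, had 57.2, 50.0, 53.8 and 59.8 CPM in ENZ tumours, against 32.8, 42.1, 28.5 and 32.1 CPM in Vehicle tumours (log2 change 0.70, SE 0.12, adjusted p = 0.00179). The count of members that rose was 1 without ENZ replicates 2, 3 or 4 or Vehicle replicates 3 or 4, 9 without ENZ replicate 1 and 11 without Vehicle replicate 2. It was 3 with DESeq2 size factors, 2 in a fit of ENZ and Vehicle alone, 10 in DESeq2 and 16 in limma-voom. Of 38 tested mitosis genes 0 passed in edgeR with all libraries and 2 were higher without ENZ replicate 1. At an unadjusted p under 0.05 in edgeR 3 were higher, and the median was 0.09. DESeq2 called 1 higher and limma-voom 2, and the proliferation marker gene Mki67 had 253, 307, 329 and 292 CPM in ENZ tumours, against 307, 336, 209.8 and 277 CPM in Vehicle tumours (log2 change 0.06, SE 0.14, adjusted p = 0.854). Of 52 tested genes of MYC-driven ribosome biogenesis 3 rose (5.77%, against 1.81% of all genes tested), with a median of 0.17. The number was 1 without ENZ replicates 2 or 3 or Vehicle replicates 2 or 3 and 8 without ENZ replicate 1 or in limma-voom. Dctpp1, which encodes a nucleotide pool enzyme, had 16.9, 18.1, 19.8 and 14.2 CPM in ENZ tumours, against 9.45, 11.7, 7.46 and 8.78 CPM in Vehicle tumours (log2 change 0.88, SE 0.15, adjusted p = 0.00173). Myc itself, counted as the mouse gene, had 116, 119, 100.4 and 79.6 CPM in ENZ tumours, against 93.7, 87.9, 105 and 98.3 CPM in Vehicle tumours, with overlapping groups (log2 change 0.11, SE 0.15, adjusted p = 0.733).

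Some cell type markers passed. Over all genes tested 3.62% fell and 1.81% rose. Over 16 lists of cell type markers the members that passed came from the endothelial, macrophage, luminal and prostate secretory lists. They were Tek and Emcn, higher, of 10 tested endothelial markers (20%), and Apoe, higher, and Cd68, lower, of 11 tested macrophage markers (9.09% each). The others were Krt19, lower at low counts, of 8 tested luminal markers (12.5%), and Fkbp5, lower, of 3 tested prostate secretory markers (33.3%). Tek, the angiopoietin receptor gene of endothelium, had 14.5, 12.7, 13.5 and 12.7 CPM in ENZ tumours, against 8.56, 5.43, 8.31 and 7.35 CPM in Vehicle tumours (log2 change 0.85, SE 0.21, adjusted p = 0.0242) and lost its call without ENZ replicate 3 (adjusted p = 0.0664) or Vehicle replicates 2 (0.0618) or 4 (0.0574). Emcn, a sialomucin gene of endothelium (log2 change 0.57, SE 0.15, adjusted p = 0.0349), lost its call without ENZ replicates 2 (adjusted p = 0.115), 3 (0.0524) or 4 (0.0640) or Vehicle replicates 2 (0.0871), 3 (0.0619) or 4 (0.0839). Apoe (log2 change 0.53, SE 0.15, adjusted p = 0.0384) lost it without ENZ replicates 2 (adjusted p = 0.0786), 3 (0.0588) or 4 (0.121) or Vehicle replicates 1 (0.113) or 3 (0.135), with no filter, or in the fit of ENZ and Vehicle alone, and Cd68 (log2 change -0.48, SE 0.12, adjusted p = 0.0284) without ENZ replicates 1 (adjusted p = 0.0584), 3 (0.0941) or 4 (0.0603) or Vehicle replicates 2 (0.0545) or 3 (0.109). The summed level of the endothelial list was 414.6 to 721 CPM in ENZ and 408 to 641 CPM in Vehicle tumours, and that of the fibroblast list 8156 to 9357 CPM in ENZ and 9163 to 11133 CPM in Vehicle tumours. That of the macrophage list was 3129 to 4138 CPM in ENZ and 2497 to 3475 CPM in Vehicle tumours. The T and NK cell list summed to 5.64 to 13.0 CPM in ENZ and 5.77 to 25.2 CPM in Vehicle tumours, where replicates 2 and 4 held 25.2 and 19.6. The adipocyte list summed to 106.8 to 150.6 CPM in ENZ and 147.8 to 306 CPM in Vehicle tumours. The neutrophil list had 1 member at 0, Mpo, and summed to 18.3 to 39.3 CPM in ENZ and 16.3 to 22.3 CPM in Vehicle tumours. The part of these cells in the gene changes above was not tested.

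The enzalutamide effect in freely fed mice was then set beside that in fasted mice, ADF+ENZ against ADF, which uses other tumours. There 16.3% of the genes tested passed, 1652 higher (8.72%) and 1429 lower (7.54%). Of the 686 genes lower in ENZ, 124 were also lower in ADF+ENZ than in ADF, which is 18.1% of the 686 and 8.68% of the 1429. Of the 342 genes higher in ENZ, 108 were also higher in ADF+ENZ, which is 31.6% of the 342 and 6.54% of the 1652. In the opposite direction were 19 of the 686 and 6 of the 342. By sign alone, 67.8% of the 686 were below 0 in fasted mice, against 51.7% of all genes tested. Of the 342, 78.4% were above 0 there, against 48.3% of all genes tested. Libraries of the ADF group differed in make-up, with 24.0% ± 2.05 of reads in no feature in ADF+ENZ against 32.9% ± 2.73 in ADF (SD, n = 4 each), and the part of this in the fasted comparison was not tested.

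The effect itself, fed minus fasted, differed in 587 genes (3.10% of those tested, edgeR adjusted p under 0.05). Single libraries moved this number, to 148 without ADF replicate 4, 175 without ADF+ENZ replicate 3, 190 without Vehicle replicate 3, 209 without ADF+ENZ replicate 1, 224 without Vehicle replicate 2 and 908 without ADF+ENZ replicate 2. It was 294 to 391 without ADF replicates 2 or 3 or ENZ replicates 2, 3 or 4. The 5 genes with the smallest p for the difference among those that passed in both were Ly6a, Suox, Nfil3, Mt1 and Arl4a. Each of them fell in fed mice. The difference uses the same ENZ and Vehicle libraries as the fed comparison and is not independent of it. Suox, which encodes sulfite oxidase, had 31.6, 23.95, 28.5 and 30.6 CPM in ENZ tumours, against 80.7, 82.0, 80.6 and 83.8 CPM in Vehicle tumours (log2 change -1.51, SE 0.12, adjusted p = 4.99e-07). In fasted mice it averaged 33.8 ± 4.41 CPM in ADF+ENZ and 37.8 ± 6.47 CPM in ADF tumours (SD, n = 4 each), a log2 change of -0.16 that did not pass (adjusted p = 0.342), and the difference of the effects was -1.35 (edgeR adjusted p = 0.000837). Ly6a averaged 271 ± 21.9 CPM in ADF+ENZ and 277 ± 30.8 CPM in ADF tumours (SD, n = 4 each), and the difference was -1.25 (adjusted p = 0.000403). Nfil3, a repressor gene of the circadian system, had 16.2, 14.9, 12.02 and 12.04 CPM in ENZ tumours, against 29.4, 41.3, 33.2 and 30.4 CPM in Vehicle tumours in fed mice (log2 change -1.29, SE 0.14, adjusted p = 3.21e-05). Its fasted means were 18.8 ± 3.12 CPM in ADF+ENZ and 14.6 ± 1.56 CPM in ADF tumours (SD, n = 4 each), and the difference was -1.65 (adjusted p = 0.000837). Mt1 was higher, not lower, in fasted ADF+ENZ tumours, at 104 ± 17.0 CPM in ADF+ENZ and 78.1 ± 4.28 CPM in ADF tumours (SD, n = 4 each), with a log2 change of 0.41 (adjusted p = 0.0212), a difference of -1.18 (adjusted p = 0.00223). Arl4a, a small GTPase gene, fell in fed mice (log2 change -0.86, SE 0.10, adjusted p = 7.32e-05) and had a difference of -0.996 (adjusted p = 0.00471). In these 5 genes the Vehicle mean stood above the means of the other groups, and each of the 5 differences passed in all 16 fits with 1 library left out.

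Many HIF-related and glycolysis genes answered to enzalutamide to a different extent in the 2 feeding states. The effect differed in 12 of the 36 HIF-related genes and in 12 of the 30 glycolysis genes, against 3.10% of all genes tested. The first 12 became 4 without ADF replicate 4 or ADF+ENZ replicate 3, 5 without ADF+ENZ replicate 1 or Vehicle replicate 3, 6 when ENZ replicate 3 was left out and 7 when ENZ replicate 4 or Vehicle replicate 2 was. The second 12 became 2 without ADF+ENZ replicate 3, 3 without ADF replicate 4 or Vehicle replicates 2 or 3, 4 without ADF+ENZ replicate 1, and 5 to 7 without ADF replicate 3 or any 1 of the ENZ replicates. In fasted mice 3 of the 36 and 5 of the 30 were higher in ADF+ENZ than in ADF (8.33% and 16.7%, against 8.72% of all genes tested), 0 were lower, and the medians were 0.15 and 0.16. Ero1l averaged 40.2 ± 8.71 CPM in ENZ and 118 ± 29.8 CPM in Vehicle tumours (SD, n = 4 each). In fasted mice it averaged 33.3 ± 3.63 CPM in ADF+ENZ and 41.0 ± 7.15 CPM in ADF tumours (SD, n = 4 each), and the difference of its log2 changes was -1.25 (edgeR adjusted p = 0.0223). That call was lost without ADF replicate 4 or ADF+ENZ replicate 3, with an adjusted p of up to 0.0547. The differences in P4ha2 (-1.04, adjusted p = 0.00645), Tpi1 (-1.05, adjusted p = 0.00893) and Fkbp5 (-1.79, adjusted p = 0.00787) passed in all 16 such fits. Vegfa did not pass in fed mice and was higher in ADF+ENZ than in ADF (log2 change 0.64, adjusted p = 0.00284), a difference of -0.83 (adjusted p = 0.0128).

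Other genes passed in both feeding states. The log2 change of Lamc3 was -2.23 in fed and -2.49 in fasted mice (edgeR adjusted p = 0.00158), with a difference of 0.26 (SE 0.48, adjusted p = 0.797), and that of Cldn10 was -2.36 in fed and -1.94 in fasted mice (adjusted p = 0.0115), with a difference of -0.42 (SE 0.62, adjusted p = 0.737). Among genes that rose, the small nucleolar RNA gene Gm22270 had 10.6, 9.62, 9.13 and 10.3 CPM in ENZ tumours, against 5.05, 3.77, 2.95 and 4.31 CPM in Vehicle tumours (log2 change 1.30, SE 0.19, adjusted p = 0.000459). Its log2 change in fasted mice was 1.21 (adjusted p = 0.00179), and the difference of 0.08 did not pass (SE 0.27, adjusted p = 0.890).

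**Figure D5:**
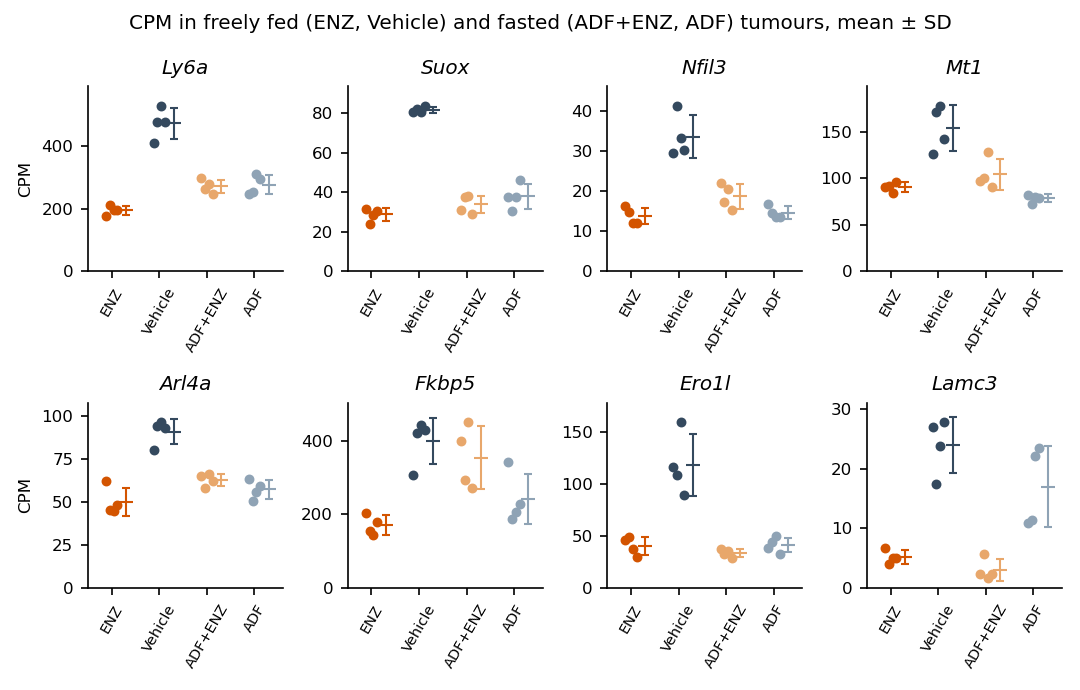
CPM of 8 genes in each tumour of the ENZ, Vehicle, ADF+ENZ and ADF groups (left to right in each panel), with the mean ± SD beside the points. In Ly6a, Suox, Nfil3, Arl4a and Ero1l the Vehicle tumours stand above the other 3 groups, while in Lamc3 both groups that received enzalutamide are below their counterparts.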

How the data were processed

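RNA of 16 tumours was sequenced in pairs on a NovaSeq, per the labels' protocols. Trim Galore, HISAT2, featureCounts and DESeq2 and the builds mm39 and GRCh38 are named, per the submitters' processing notes, with no versions or roles. The authors deposited raw counts per Ensembl gene ID, whose 5 summary entries carry the names that htseq-count gives, and no source used here gives a strand setting. The summary entries were left out of library sizes and tests.

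Symbols and gene classes came from a GRCm38 annotation, which matched 52081 of 55414 IDs and gave no coordinates to the counts. Counts were scaled by TMM and tested in edgeR 4.0.16 (quasi-likelihood, robust, R 4.3.3) on all 16 libraries, so that 4 groups share the estimate of the spread, after filterByExpr with a minimum count of 10 and a minimum total of 15. Adjusted p-values are Benjamini-Hochberg values over all 18946 genes tested, and changes are ENZ minus Vehicle. Tested on simulated counts of ENZ against Vehicle with 200 changed genes of 18479, the steps recovered 68% of 2-fold and 88% of 4-fold changes with 8 false calls. Replicate libraries differed by more than sampling noise (chi-square per degree of freedom 11.6 to 36.7 over 12 pairs), so each counted as 1 sample. Replicates are numbered in accession order. Alternatives were DESeq2 1.42.0, its size factors in edgeR, limma 3.58.1 (voom with quality weights), no filter on low counts, at least 1 CPM in 4 libraries, ENZ and Vehicle alone, and each library left out.

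Named genes were, per direction, the 12 that changed most of those that passed with ranges apart and a mean of at least 5 CPM, up to 6 members of each list by adjusted p, a fixed set of steroid and lineage genes, and 5 genes for the fed and fasted difference. Of list members, mainly those that passed in every fit with 1 library left out are described. Foxa1, Hoxb13, Epcam, Mki67, Car9, Hif1a, Ldha, Saa3, Tsc22d3, Per1, Sgk1, B2m, H2-K1, H2-D1, Mir132 and Pmepa1os, and the genes under other observations, were added once their values had been seen. Some genes that these rules name are not reported here. The members and lists were chosen with earlier results of these data known. Genes with close paralogs or overlapping or antisense partners have uncertain counts.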

Additional observations from a re-analysis of the deposited data

Results flagged for a closer look

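In 250 groups of 4 values, 1 tumour stood apart from the other 3 by Dixon's test in 9, where chance alone flags about 1 group in 20. Vehicle replicate 4 had 13.1 CPM of Cldn10, against 5.54 to 5.69 in the other Vehicle tumours. Vehicle replicate 1 had 306 CPM of Fkbp5, against 422 to 443 in the others, and 83.4 CPM of Hsd17b11, against 92.02 to 93.4 in the others. Vehicle replicate 3 had 76.2 CPM of Serpina3m, against 36.9 to 41.4 in the others. ENZ replicate 1 had 12.1 CPM of Foxl1 (others 8.12 to 8.76), 106.7 CPM of Nfkbiz (others 61.5 to 64.9) and 2035 CPM of Vim (others 2664 to 2698). ENZ replicate 2 had 153.6 CPM of Nr3c1 (others 131 to 134.6) and 5.26% of its reads were ambiguous between genes, the highest share of the ENZ libraries.

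In 44 of the 118 tested genes described here the enzalutamide effect differed between freely fed and fasted mice, against 3.10% of all genes tested. The measure was an edgeR adjusted p under 0.05 for the difference of the log2 changes, fed minus fasted. Of the 118, 96 passed in ENZ against Vehicle, which uses libraries of this difference, and 5 genes were picked by the difference itself. The 44 is therefore raised by how genes were chosen and is no result about them as a set. In 24 of the 44 the difference passed in all 16 fits with 1 library left out. In the other 20 it was lost in at least 1, in 17 of them without ADF replicate 4, in 17 without ADF+ENZ replicate 3, in 17 without Vehicle replicate 3 and in 16 without ADF+ENZ replicate 1. The difference passed in 2 of the 16 fits for Aldoc, 4 for Capn6 and Cd68, 5 for Adam10 and Nek10, 6 for Pgk1, 7 for Il18r1, 8 for Bnip3l, Hk2 and Pgf, 9 for Pik3r1 and Zbtb16, 10 for Gclc and 11 to 15 for Pmepa1os, Mir212, Anxa2, Ldha, Npc1, Ero1l and Megf10. It was also lost in limma-voom for Aldoc, Nek10 and Pmepa1os, and with no filter for Capn6, Il18r1, Nek10 and Pgf. Megf10, at low counts, was lower in ENZ than in Vehicle and higher in ADF+ENZ than in ADF (2.60, adjusted p = 0.0348), a difference of -5.36, which was lost without ADF replicate 4. Among steroid-responsive genes the difference was -2.51 for Zbtb16, -1.79 for Fkbp5, -1.20 for Ndrg1, -1.18 for Mt1 and -0.80 for Pik3r1. For the steroid dehydrogenase gene Hsd17b11 it was -0.75. Receptor, surface and regulatory genes included Adgrg2 at -2.08, Nr1h4 at -2.02, Il18r1 at -1.65, Nfil3 at -1.65, Ly6a at -1.25, Ly6c1 at -1.07, Id2 at -1.123, Lrp5 at -0.77 and Cd68 at -0.68. In Adgrg2, Nr1h4, Il18r1 and Synm (-1.74) the gene also fell in fasted mice, by 0.70 to 1.11 on the log2 scale.

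Among HIF-related and glycolysis genes the difference was -1.73 for Aldoc, -1.71 for Pgf, -1.25 for Ero1l, -1.05 for Tpi1, -1.04 for P4ha2 and -0.83 for Vegfa. It was -0.77 for Ldha, -0.74 for Pgk1, -0.69 for Hk2, -0.67 for Hk1, -0.61 for Bnip3l and -0.59 for Anxa2. Matrix, membrane and enzyme genes included Fn1 at -1.36, Suox at -1.35, A4galt at -1.01, Arl4a at -0.996, Cdh13 at -0.86, Gclc at -0.83, Npc1 at -0.61 and Adam10 at -0.46. Of genes that rose in ENZ the difference was 0.84 for Cx3cl1, 1.29 for 1700016P03Rik, 1.41 for Mir212, 1.598 for Capn6, 1.63 for Nek10, 1.898 for Atp2b3 and 2.75 for Pmepa1os.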

How the results depend on the processing

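Depth and the spread between 4 tumours limited small changes and genes at low counts. The 1028 genes past the threshold (342 higher, 686 lower) were 1594 (551 and 1043) with DESeq2 and 1655 (664 higher) with limma-voom. In a fit of the ENZ and Vehicle libraries alone they were 755, with 227 higher. With 1 library left out they were 403 to 1194, with 99 to 454 higher and 304 to 740 lower. The 587 genes whose effect differed between fed and fasted mice (174 higher, 413 lower) were 1363 (417 and 946) with DESeq2, and 301 were higher with limma-voom. With 1 library left out they were 148 to 908, with 27 to 297 higher and 121 to 611 lower. No other setting moved these counts by over 1.5 times, and no scaling shifted the median log2 change by over 0.1. DESeq2 size factors in edgeR changed the call of 1 of 118 genes described here, DESeq2 of 2 of the 114 to which it gave an adjusted p, limma-voom of 2, no filter of 7 and the fit of ENZ and Vehicle alone of 11. None of these genes changed direction in the settings that kept every ENZ and Vehicle library. With 1 library left out a change near 0 could change sign, as in Foxa1 (log2 change 0.12 with all libraries, down to -0.00865). The cause of the moved counts was not tested. No paired analysis was possible because the labels give no replicate numbers shared between groups.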

Other observations

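A few genes outside the lists were chosen after their values were seen. Of these B4galnt1, A4galt and Msln had among the smallest p-values of all. B4galnt1, which encodes the GM2/GD2 ganglioside synthase, had 14.8, 16.4, 15.6 and 17.7 CPM in ENZ tumours, against 41.6, 46.6, 49.3 and 44.2 CPM in Vehicle tumours (log2 change -1.49, SE 0.11, adjusted p = 4.99e-07 in edgeR). A4galt, another glycolipid glycosyltransferase gene, had 56.9, 49.7, 42.5 and 41.4 CPM in ENZ tumours, against 92.9, 121, 107 and 137 CPM in Vehicle tumours (log2 change -1.27, SE 0.12, adjusted p = 5.23e-06). Msln, which encodes the surface protein mesothelin, had 42.6, 37.9, 37.3 and 47.9 CPM in ENZ tumours, against 86.7, 88.1, 98.8 and 105 CPM in Vehicle tumours (log2 change -1.19, SE 0.10, adjusted p = 2.37e-06). In these genes no ENZ tumour reached the Vehicle range, and each passed in all 8 fits with 1 library left out. In fasted mice B4galnt1 (-0.98, edgeR adjusted p = 0.000351) and Msln (-0.88, 0.000405) also fell. Tigit, an inhibitory receptor gene of T and NK cells, was at 2.88 to 3.78 CPM in ENZ and 7.003 to 20.2 CPM in Vehicle tumours (log2 change -1.80, SE 0.27, adjusted p = 0.000674), while the T and NK marker list gave 0 calls of 10 tested in edgeR (0 at an unadjusted p under 0.05, 0 in DESeq2 and 0 in limma-voom), with 9 of 10 below 0 and a median of -0.75. C1ra, a complement protease gene, was at 8.23 to 15.7 CPM in ENZ and 35.0 to 45.4 CPM in Vehicle tumours (log2 change -1.76, SE 0.32, adjusted p = 0.00646).

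Gene families were counted whole, also after their values were seen. Of 6 tested Ly6 genes 2 fell (33.3%, against 3.62% of all genes tested) and 0 rose. They were Ly6a, given above, and its paralog Ly6c1 (log2 change -1.07, SE 0.11, adjusted p = 2.05e-05). Ly6e, at 2038 to 2560.3 CPM in ENZ and 2112 to 2849 CPM in Vehicle tumours, did not pass (log2 change -0.11, SE 0.15, adjusted p = 0.740). Of 78 tested small nucleolar RNA genes 6 rose (7.69%, against 1.81% of all genes tested; Gm22270, Snora57, Snord104, Snord13, Snord55 and Snord32a) and 0 fell (median log2 change 0.30). Of 58 tested replication-dependent histone genes 9 rose (15.5%) and 0 fell, with a median of 0.51. Histone and small nucleolar RNA genes share sequence with close copies, so their counts are uncertain. Pcna, the replication clamp gene, ranged from 599.8 to 2049.9 CPM in ENZ and from 158 to 3862 CPM in Vehicle tumours, with overlapping groups (log2 change 0.12, SE 0.83, adjusted p = 0.959).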
